A study of Mus musculus with 28 samples.

Results

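The cytokines and receptors described here are 9 of the 54532 genes counted in the study. They are the cytokine genes Il6, Il10, Lif and Osm and the genes of 5 receptor chains, Il6ra, Il6st, Il10ra, Il10rb and Il4ra, taken as a list of named genes and matched by symbol to their Ensembl identifiers, and all 9 were found. They were followed in murine bone marrow-derived macrophages (BMDMs), which were grown from marrow of C57/B6JB mice aged 8 to 12 weeks in medium with M-CSF. In the incubation, every culture had fresh medium with 1 mM CaCl2 and received PBS (control), plasma-derived von Willebrand factor (VWF, the clotting protein that tethers platelets) at 10 µg/ml, or bacterial lipopolysaccharide (LPS, a ligand of the pattern receptor TLR4) at 100 ng/ml, for 3.5 h or 16 h. Each time had 5 control, 5 VWF and 4 LPS cultures, 28 in all. No gene was deleted in any group. The labels call the replicates biological but do not say whether they were separate mice or separate wells of the same marrow, so p values measure the spread between these cultures.

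IL-6, LIF and oncostatin M (the product of Osm) belong to a cytokine family whose receptors all contain gp130, the product of Il6st. IL-6 binds first to its own chain, IL-6Rα (Il6ra), which is also shed as a soluble form. IL-10 signals through IL-10R1 (Il10ra), which determines which cells respond, together with IL-10R2 (Il10rb), a chain shared with other cytokines of its class. Il4ra encodes IL-4Rα, the chain that binds IL-4 and takes part in the receptors for IL-4 and IL-13. All of these receptors act through JAK kinases and STAT transcription factors, with STAT3 the main one for IL-6 and IL-10 and STAT6 for IL-4. In macrophages, IL-6 is a product of inflammatory activation, and IL-10 acts back on the same cells to limit it.

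The genes lie on 8 chromosomes of GRCm38. Il6 (ENSMUSG00000025746) is on chromosome 5 from 30013114 to 30019981, Il10 (ENSMUSG00000016529) on chromosome 1 from 131019845 to 131024974, Il6ra (ENSMUSG00000027947) on chromosome 3 from 89864059 to 89913196 and Il6st (ENSMUSG00000021756) on chromosome 13 from 112464070 to 112510086. Osm (ENSMUSG00000058755) and Lif (ENSMUSG00000034394) lie close together on chromosome 11, from 4236420 to 4241026 and from 4257557 to 4272514. Il10ra (ENSMUSG00000032089) is on chromosome 9 from 45253837 to 45269149, Il10rb (ENSMUSG00000022969) on chromosome 16 from 91406164 to 91425834 and Il4ra (ENSMUSG00000030748) on chromosome 7 from 125552120 to 125579474. Some exon bases are shared with another annotated gene in 3 of them: 14.9% for Il10rb (Gm21970, the same strand), 9.51% for Il4ra (Gm44876, the other strand) and 2.80% for Il6ra (Gm42809, the other strand). The strand setting of the counting is not given in the sources used here, so reads on those bases cannot be assigned with certainty.

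Upstream sequence is shown for Il6, Lif and Il6ra because they behaved unlike each other: the first was the gene with the largest change, the second also followed another cell type's markers, and the third was the member called lower with both agonists at 3.5 h. RefSeq promoter windows of GRCm38.p6 were matched for 5 of the 9 members, and Il10, Osm, Il10ra and Il10rb were not matched. Each sequence runs 5′ to 3′ on the strand of the gene and ends at the base before the start of the gene in GENCODE, and capitals mark motif matches on either strand.
Il6 (chr5:30012864-30013113, + strand): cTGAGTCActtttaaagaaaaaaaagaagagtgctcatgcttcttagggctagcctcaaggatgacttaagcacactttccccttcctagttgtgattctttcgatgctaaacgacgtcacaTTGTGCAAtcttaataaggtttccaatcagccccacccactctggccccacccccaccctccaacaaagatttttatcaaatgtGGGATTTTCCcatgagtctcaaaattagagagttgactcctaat
Lif (chr11:4257318-4257556, + strand): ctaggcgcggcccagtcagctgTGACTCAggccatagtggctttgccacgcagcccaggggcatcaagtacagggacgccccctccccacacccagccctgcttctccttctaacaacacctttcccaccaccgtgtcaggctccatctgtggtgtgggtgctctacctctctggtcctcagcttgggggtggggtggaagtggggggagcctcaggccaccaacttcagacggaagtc
Il6ra (chr3:89913197-89913446, − strand): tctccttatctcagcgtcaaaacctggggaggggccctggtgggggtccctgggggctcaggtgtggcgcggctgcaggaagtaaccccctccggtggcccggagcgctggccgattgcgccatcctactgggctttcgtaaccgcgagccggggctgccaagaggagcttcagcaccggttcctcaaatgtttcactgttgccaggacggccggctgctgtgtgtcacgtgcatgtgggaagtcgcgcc

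The motifs searched in the 250 bases before the RefSeq start were the 10-base NF-κB consensus, the ISRE of interferon-responsive promoters, C/EBP (TTGCNNAA), CRE (TGACGTCA) and STAT (TTCNNNGAA) elements and a TATA box, all on both strands. The AP-1 motif was searched as TGANTCA. The capitals in the Il6 sequence are, from the left, an AP-1 match (bases 249 to 243 before the GENCODE start), a C/EBP match (128 to 121) and an NF-κB match (44 to 35). In Lif they are an AP-1 match (217 to 211). No motif of this list was found in the windows of Il6ra and Il6st, nor in the shorter window of Il4ra (99 bases). The Lif window held 239 bases before the GENCODE start. Among 32851 RefSeq windows searched in the same way, 3.90% held the NF-κB consensus, 9.56% C/EBP, 6.75% AP-1, 1.55% CRE, 7.02% STAT, 2.98% ISRE and 12.4% TATA. A match is a run of letters and was not tested for binding.

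Total counts per culture lay between 41131209 and 77699206, with a median of 52986574. At 16 h, 2 cultures stood apart from the others of their group. Control replicate 5 differed more than 2-fold from the median of the other controls in 2150 of 8867 expressed genes, and LPS replicate 4 in 1396, against 37 to 329 genes in the other 26 cultures. Results that changed without them are given both ways. Macrophage marker genes were expressed in all cultures (8 of 8, summed level 5862 to 26060 CPM, the counts scaled to the library total and its TMM factor), with the lowest sum in control replicate 5 at 16 h. The 6 neutrophil markers summed to 3.22 to 21.3 CPM in cultures at 3.5 h and 8.32 to 31.3 CPM at 16 h, most of it from S100a8 (up to 24.3 CPM) and S100a9 (up to 9.98 CPM), with Ly6g at no more than 2 counts. Levels are given as such CPM, with factors from all 28 cultures, and a gene was called higher or lower when edgeR's quasi-likelihood test gave an adjusted p below 0.05 and the log2 fold change was beyond 1 in either direction. Genes were tested in a comparison where they reached 10 TPM (a scaled level that takes gene length into account) in at least 1 culture. Changes are relative to TMM scaling: with scaling by library totals alone, all genes tested had a median log2 fold change of −0.22 (VWF) and −0.54 (LPS) against control at 3.5 h and of −0.57 (LPS) at 16 h, where TMM gave 0.00, −0.02 and −0.03. For VWF against LPS this median was 0.30 at 3.5 h and 0.44 at 16 h, where TMM gave 0.02 and 0.00, and for the change of the VWF effect with time it was 0.13, beside 0.00.

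Il6 was close to silent in control BMDMs and was the member that rose most with either agonist at 3.5 h. The 5 control cultures at 3.5 h held 0.141, 0.116, 0.0613, 0.134 and 0.167 CPM, from 4 to 10 counts each. With VWF they held 46.8, 62.4, 75.8, 127 and 63.1 CPM and with LPS 538, 312, 455 and 524 CPM. The 3 groups did not overlap. The rise was 616-fold with VWF (log2 fold change 9.27, SE 0.37, edgeR adjusted p = 6.97e-09) and 3733-fold with LPS (log2 fold change 11.87, SE 0.26, edgeR adjusted p = 1.03e-10). VWF left Il6 6.01-fold below LPS (log2 fold change −2.59, SE 0.27, edgeR adjusted p = 2.31e-05).

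At 16 h, Il6 was still far above control with LPS and was near 0 with VWF. LPS cultures held 73.8, 54.4, 37.2 and 79.5 CPM, VWF cultures 0.377, 0.331, 0.206, 0.408 and 0.165 CPM (9 to 28 counts), and 4 of 5 control cultures had no read, which allows up to 0.0111 CPM over those 4, while control replicate 4 had 21 counts (0.342 CPM). Against the 4 controls without a read, with that floor of 3 counts over them, the mean with LPS was at least 5500.4-fold higher and the mean with VWF at least 26.7-fold higher. These bounds do not hold for the whole control group. Against the mean of all 5 controls the ratio was 895 with LPS and 4.35 with VWF, whose mean (0.298 CPM) was below control replicate 4. The fitted log2 fold change of LPS against control was 9.88 with all controls and 14.77 without control replicate 4 (edgeR adjusted p = 2.42e-05), a size that depends on how counts of 0 are handled and is no bound. The VWF and control groups overlapped through control replicate 4, and the filter left Il6 out of that test. Without a filter, the log2 fold change was 2.17 (edgeR adjusted p = 0.28), and in a fit of all 28 cultures it was 2.18 (edgeR adjusted p = 0.0187). From 3.5 h to 16 h the level fell 248-fold with VWF (log2 fold change −7.96, SE 0.50, edgeR adjusted p = 5.08e-13) and 7.47-fold with LPS (log2 fold change −2.90, SE 0.41, edgeR adjusted p = 1.06e-06), so that VWF was 203-fold below LPS at 16 h (log2 fold change −7.66, SE 0.33, edgeR adjusted p = 8.15e-08).

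**Figure D1:**
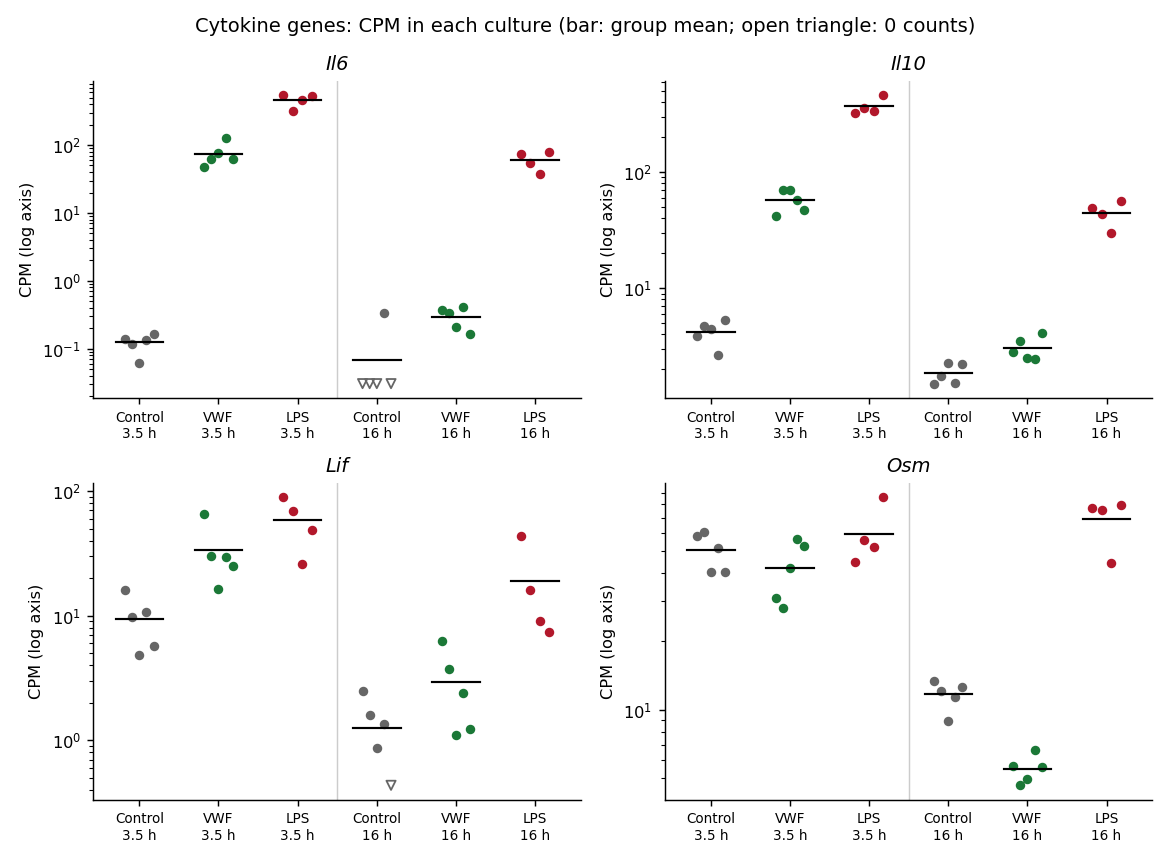
CPM on a log axis in each culture for Il6, Il10, Lif and Osm, by treatment and time, with a bar at the group mean and an open triangle for a culture with 0 counts. Il6 and Il10 separate the 3 groups at 3.5 h, and Osm is lowest in the VWF cultures at 16 h (4.66 to 6.64 CPM).

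Il10 rose in the same cultures from a measurable baseline. Control cultures at 3.5 h held 3.91, 4.74, 4.46, 2.66 and 5.34 CPM, VWF cultures 42.3, 69.9, 70.8, 57.1 and 47.1 CPM and LPS cultures 319, 358, 338 and 457 CPM, with no overlap between groups. This was a 13.9-fold rise with VWF (log2 fold change 3.80, SE 0.22, edgeR adjusted p = 8.36e-08) and an 88.7-fold rise with LPS (log2 fold change 6.47, SE 0.22, edgeR adjusted p = 9.68e-10). VWF was 6.31-fold below LPS (log2 fold change −2.66, SE 0.17, edgeR adjusted p = 1.07e-06).

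At 16 h, control cultures held 1.51, 1.74, 2.25, 1.51 and 2.24 CPM, VWF cultures 2.80, 3.51, 2.51, 2.45 and 4.08 CPM and LPS cultures 49.3, 44.0, 29.8 and 56.3 CPM. All VWF cultures were above all controls, by means of 3.07 ± 0.705 against 1.85 ± 0.374 CPM (SD, n = 5), but no culture of either group reached the filter. Without a filter the log2 fold change was 0.79 (edgeR adjusted p = 0.0301), under the fold threshold. LPS still raised Il10 24.9-fold (log2 fold change 4.64, SE 0.24, edgeR adjusted p = 2.76e-07). The fall from 3.5 h to 16 h was 18.7-fold with VWF (log2 fold change −4.22, SE 0.22, edgeR adjusted p = 1.6e-14), 8.21-fold with LPS (log2 fold change −3.04, SE 0.23, edgeR adjusted p = 1.93e-11) and 2.28-fold in controls (log2 fold change −1.19, SE 0.21, edgeR adjusted p = 4.69e-05). Across the 28 cultures the log2 CPM of Il6 and Il10 had a Pearson r of 0.96, a description that the 6 shared group means largely set.

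Lif rose with both agonists at 3.5 h, with a wide spread between cultures of the same group. Control cultures held 16.1, 9.84, 4.81, 10.8 and 5.68 CPM, VWF cultures 65.6, 30.3, 16.5, 29.9 and 25.2 CPM and LPS cultures 89.6, 69.8, 26 and 48.7 CPM. Each agonist's cultures were all above the controls and overlapped with those of the other agonist. The rise was 3.62-fold with VWF (log2 fold change 1.86, SE 0.41, edgeR adjusted p = 0.00331) and 6.27-fold with LPS (log2 fold change 2.65, SE 0.41, edgeR adjusted p = 0.000165). The difference between VWF and LPS was not called (log2 fold change −0.78, SE 0.41, edgeR adjusted p = 0.135), with a 95% interval of −1.70 to 0.14. It was called without VWF replicate 1, the highest of its group, at −1.20 (edgeR adjusted p = 0.0209).

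At 16 h, Lif was at 2.51, 1.60, 0.871, 1.35 and 0 CPM in controls, 6.23, 3.72, 1.1, 2.41 and 1.23 CPM with VWF and 43.6, 16.2, 9.14 and 7.46 CPM with LPS. The VWF and control ranges overlapped and the pair was under the filter. LPS cultures were all above the controls (log2 fold change 3.94, SE 0.93, edgeR adjusted p = 0.00535) and above VWF cultures (VWF against LPS, log2 fold change −2.70, SE 0.66, edgeR adjusted p = 0.00561). Without LPS replicate 1 at 16 h, Lif did not reach the filter in either of these comparisons. Lif fell with time in controls (log2 fold change −2.87, SE 0.65, edgeR adjusted p = 0.000775) and with VWF (log2 fold change −3.50, SE 0.65, edgeR adjusted p = 4.58e-05). With LPS the groups at 16 h and 3.5 h overlapped, and the fall (log2 fold change −1.61, SE 0.67, edgeR adjusted p = 0.0382) lost its call without any of 5 LPS cultures: −1.33 (edgeR adjusted p = 0.11) and −1.52 (adjusted p = 0.072) without replicates 1 and 2 at 3.5 h, and −1.54, −1.38 and −1.35 (adjusted p = 0.0819, 0.104 and 0.0966) without replicates 2, 3 and 4 at 16 h. It was −2.42 (edgeR adjusted p = 0.00544) without replicate 1 at 16 h.

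Marker genes of fibroblasts or stromal cells moved with Lif within every group. The summed level of Col1a1, Col1a2, Dcn and Pdgfra (4 of 4 detected in all cultures) ranged from 51.1 to 305 CPM in controls, 52.3 to 386 CPM with VWF and 51.3 to 192 CPM with LPS at 3.5 h, and from 16.5 to 169 CPM, 52.3 to 276 CPM and 60.7 to 322 CPM at 16 h, so the ranges of the treatments overlapped. In 6 of 6 groups, the order of the cultures by Lif was the order by this marker sum. The full order was the same for Il4ra in 1 group and for the other members in 0. Replicate 1 had the highest marker sum in each of the 6 groups. Without the replicate-1 cultures, the rise of Lif at 3.5 h was still called with VWF (log2 fold change 1.73, edgeR adjusted p = 0.00141) and with LPS (log2 fold change 2.66, edgeR adjusted p = 0.000359). This relation was noticed after the values had been seen, and the part of such cells in the level of Lif was not tested. In bulk RNA, fewer cells of a type and less RNA per cell cannot be told apart.

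**Figure D2:**
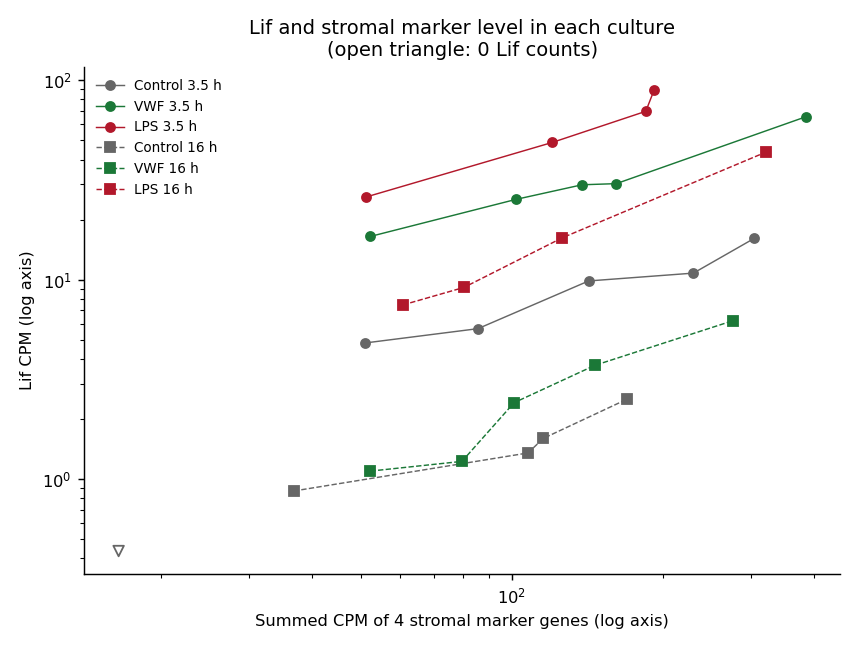
CPM of Lif against the summed CPM of Col1a1, Col1a2, Dcn and Pdgfra in each culture, both on log axes, with a line joining the cultures of a group in the order of the marker sum and an open triangle for the control culture with 0 Lif counts. In 6 of 6 groups the line rises at every step, and at like marker sums the agonist cultures at 3.5 h lie above their controls.

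Osm was the member called in opposite directions against control by VWF and LPS at 16 h. At 3.5 h, controls held 58.4, 60.4, 40.5, 51.5 and 40.2 CPM, VWF cultures 30.9, 28.1, 41.9, 56.4 and 52.4 CPM and LPS cultures 44.6, 55.7, 51.8 and 86.1 CPM, and all 3 groups overlapped. Neither agonist changed it past the thresholds (VWF, log2 fold change −0.23, SE 0.20, edgeR adjusted p = 0.411, and LPS, log2 fold change 0.27, SE 0.20, edgeR adjusted p = 0.259). At 16 h, controls held 13.4, 12.1, 8.91, 11.4 and 12.7 CPM, VWF cultures 5.64, 4.66, 4.99, 6.64 and 5.62 CPM and LPS cultures 76.9, 76.0, 44.1 and 79.4 CPM, with no overlap between groups. Osm was 2.14-fold lower with VWF (log2 fold change −1.09, SE 0.14, edgeR adjusted p = 0.000203) and 6.06-fold higher with LPS (log2 fold change 2.60, SE 0.20, edgeR adjusted p = 3.59e-06), which put VWF 12.5-fold below LPS (log2 fold change −3.65, SE 0.19, edgeR adjusted p = 2.47e-07). Over time Osm fell 4.29-fold in controls (log2 fold change −2.10, SE 0.21, edgeR adjusted p = 1.55e-08) and 7.62-fold with VWF (log2 fold change −2.93, SE 0.22, edgeR adjusted p = 1.32e-11). In LPS cultures its change had a log2 fold of 0.21 (95% interval −0.25 to 0.68). The effect of LPS on Osm was larger at 16 h by the test of that difference (log2 fold change 2.32, SE 0.31, edgeR adjusted p = 5.88e-07).

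Of the 2 chains of the IL-6 receptor, Il6ra fell with both agonists at 3.5 h. Controls held 31.3, 36.8, 38.0, 38.6 and 39.6 CPM, VWF cultures 17.3, 14.4, 17.9, 11.1 and 16.2 CPM and LPS cultures 14.8, 18.2, 14.8 and 13.1 CPM. Both agonist groups were wholly below the controls, 2.35-fold with VWF (log2 fold change −1.23, SE 0.13, edgeR adjusted p = 1.12e-05) and 2.39-fold with LPS (log2 fold change −1.25, SE 0.11, edgeR adjusted p = 2.16e-06). VWF and LPS cultures overlapped, and Il6ra was under the filter in that pair, where a fit without a filter gave a log2 difference of −0.01. At 16 h the means were 44.8 ± 5.56 CPM in controls, 42.1 ± 4.52 CPM with VWF and 48.4 ± 4.23 CPM with LPS, with overlapping ranges and no call (VWF, log2 fold change −0.09, SE 0.11, edgeR adjusted p = 0.613, and LPS, log2 fold change 0.15, SE 0.12, edgeR adjusted p = 0.31). Il6ra rose from 3.5 h to 16 h with VWF (log2 fold change 1.45, SE 0.12, edgeR adjusted p = 9.76e-11) and with LPS (log2 fold change 1.67, SE 0.14, edgeR adjusted p = 6.77e-11). In controls the log2 change was 0.28 (edgeR adjusted p = 0.0509).

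Il6st, the shared gp130 chain, was not called at 3.5 h and was lower with both agonists at 16 h, past the adjusted p and short of the fold threshold. At 3.5 h it ranged from 36.5 to 57.4 CPM in controls, 28 to 46.5 CPM with VWF and 40.7 to 55.7 CPM with LPS, all overlapping (VWF, log2 fold change −0.16, SE 0.18, edgeR adjusted p = 0.529, and LPS, log2 fold change 0.12, SE 0.14, edgeR adjusted p = 0.459). At 16 h, controls held 36.2, 40.8, 43.4, 40.9 and 47.2 CPM, VWF cultures 21.1, 19.6, 28.4, 16.4 and 24.9 CPM and LPS cultures 28.5, 20.4, 24.9 and 16.6 CPM, with each agonist wholly below the controls. The adjusted p passed and the fold did not, with VWF (log2 fold change −0.92, SE 0.15, edgeR adjusted p = 0.000755) or LPS (log2 fold change −0.85, SE 0.16, edgeR adjusted p = 0.0015). The VWF comparison was called without VWF replicate 3 (−1.03, edgeR adjusted p = 0.000387). In both comparisons with control at 16 h, Il6st reached the filter in control cultures alone. Its highest value was 12.2 TPM in controls, 7.79 TPM with VWF and 5.68 TPM with LPS. Il6st fell from 3.5 h to 16 h in LPS cultures (log2 fold change −1.05, SE 0.19, edgeR adjusted p = 3.44e-05), a call that was lost without LPS replicate 4 at 16 h (−0.93, edgeR adjusted p = 0.000255) or LPS replicate 2 at 3.5 h (−0.95, edgeR adjusted p = 0.000248).

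Il10ra, the ligand-binding chain for IL-10, rose in steps from control to VWF to LPS at 3.5 h. At 3.5 h, controls held 73.7, 70.6, 70.8, 80.1 and 68.3 CPM, VWF cultures 216, 248, 262, 247 and 226 CPM and LPS cultures 445, 493, 473 and 446 CPM. No groups overlapped, and the rise was 3.36-fold with VWF (log2 fold change 1.75, SE 0.07, edgeR adjusted p = 7.28e-09) and 6.48-fold with LPS (log2 fold change 2.70, SE 0.08, edgeR adjusted p = 4.22e-10). VWF was 1.91-fold below LPS, past the adjusted p and short of the fold threshold (log2 fold change −0.93, SE 0.08, edgeR adjusted p = 5.73e-06). At 16 h, controls held 75.2, 83.0, 87.7, 93.3 and 98.1 CPM, VWF cultures 116, 131, 126, 132 and 125 CPM and LPS cultures 189, 199, 188 and 198 CPM, again without overlap. In TPM, the VWF cultures (89.1 to 109) and the LPS cultures (98.7 to 128) overlapped at 16 h. The LPS rise was called (log2 fold change 1.18, SE 0.10, edgeR adjusted p = 5.08e-06), but scaling by library totals brought it to 0.65, below the fold threshold. The VWF difference was 1.43-fold and was not called (log2 fold change 0.52, SE 0.08, edgeR adjusted p = 0.000705).

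Il10rb, the shared chain, did not follow Il10ra. Its groups at 3.5 h ranged from 155 to 194 CPM in controls, 148 to 176 CPM with VWF and 147 to 168 CPM with LPS, and neither agonist was called (VWF, log2 fold change −0.09, SE 0.08, edgeR adjusted p = 0.398, and LPS, log2 fold change −0.16, SE 0.09, edgeR adjusted p = 0.13). The 95% intervals of these differences under TMM scaling, −0.26 to 0.08 and −0.36 to 0.03, lay within the fold threshold. In TPM, which has no TMM factor, Il10rb at 3.5 h ranged from 145 to 155 in controls, 107 to 130 with VWF and 77.7 to 91.8 with LPS, without overlap. At 16 h, controls held 136, 135, 139, 128 and 184 CPM, VWF cultures 162, 181, 156, 178 and 167 CPM and LPS cultures 229, 249, 215 and 243 CPM. All LPS cultures were above all controls, with a fold of 1.66 that was not called (log2 fold change 0.73, SE 0.12, edgeR adjusted p = 0.000705). Control replicate 5, which stood apart over all genes, had the highest control value in CPM, and VWF cultures overlapped with the controls in CPM through it alone. In TPM this culture had the lowest control value (103, the others 106 to 114), and VWF cultures (110 to 133 TPM) overlapped with other controls. The VWF difference had a log2 fold change of 0.22 (edgeR adjusted p = 0.137) and, without the 2 cultures that stood apart, 0.32 (edgeR adjusted p = 0.00168), under the fold threshold in both.

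**Figure D3:**
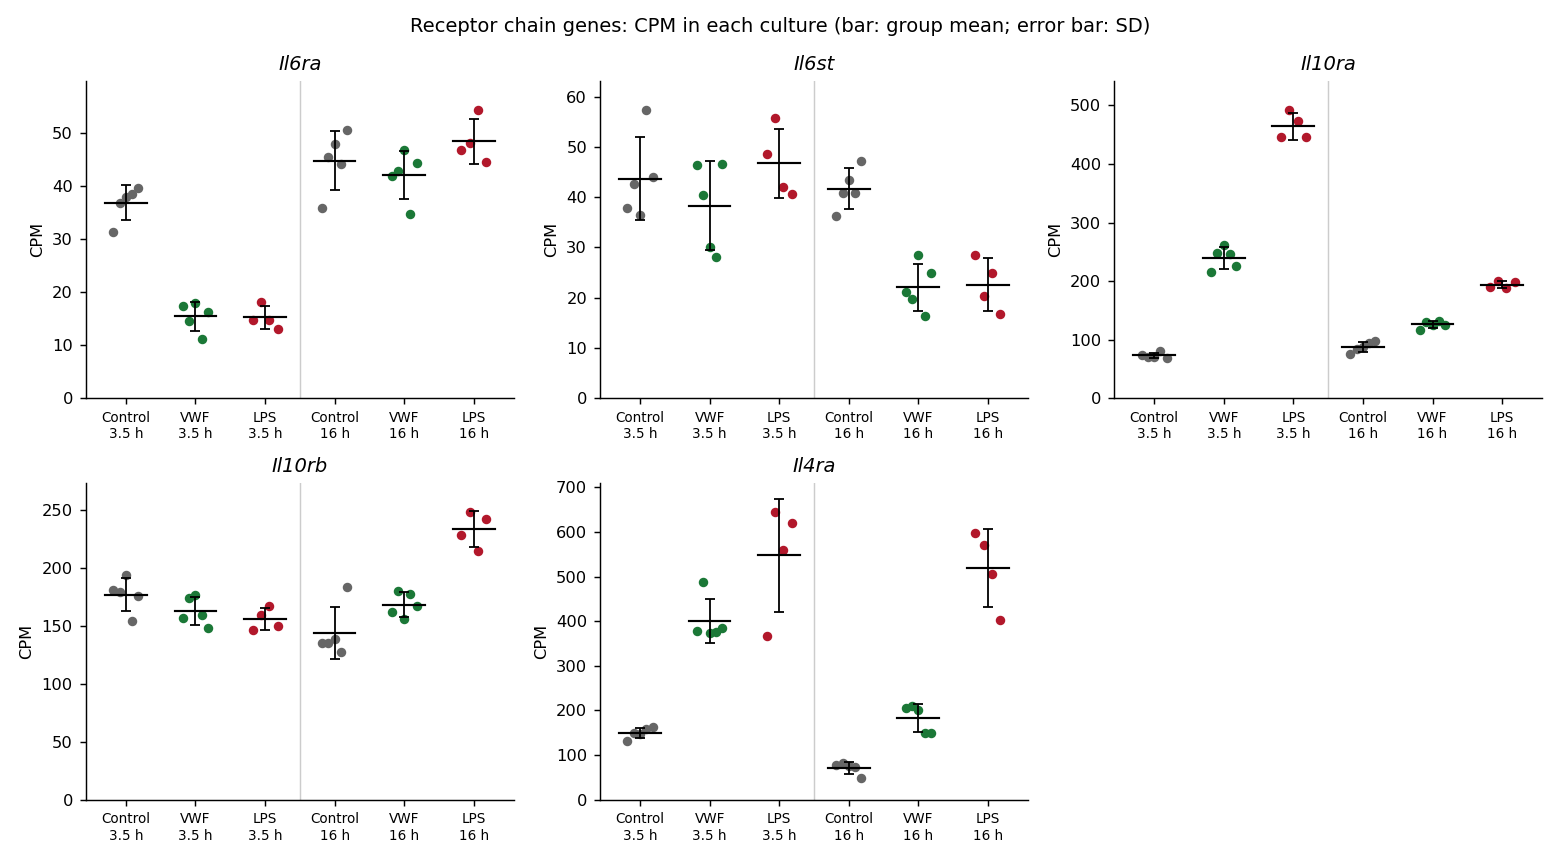
CPM on linear axes from 0 in each culture for the 5 receptor chain genes, by treatment and time, with a bar at the group mean and an error bar of 1 SD. Il10ra steps up from control to VWF to LPS at both times, Il6ra is lowest in both agonist groups at 3.5 h, and Il6st is lowest in both agonist groups at 16 h.

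Il4ra was the member called higher with VWF at both times. Il10ra, not called at 16 h, and Il10, not tested there, also had all VWF cultures above all controls at both times. At 3.5 h, controls held 133, 149, 147, 158 and 162 CPM, VWF cultures 379, 487, 374, 375 and 384 CPM and LPS cultures 366, 646, 559 and 619.5 CPM. Both agonists were above all controls, 2.72-fold with VWF (log2 fold change 1.44, SE 0.10, edgeR adjusted p = 2.19e-07) and 3.71-fold with LPS (log2 fold change 1.89, SE 0.15, edgeR adjusted p = 8.62e-07), and overlapped with each other. At 16 h, controls held 77.1, 82.2, 74.4, 73.3 and 48.2 CPM, VWF cultures 206, 211, 199.9, 150.4 and 149 CPM and LPS cultures 597, 571, 505 and 402 CPM, without overlap. The rise was 2.56-fold with VWF (log2 fold change 1.36, SE 0.17, edgeR adjusted p = 0.000163) and 7.49-fold with LPS (log2 fold change 2.90, SE 0.18, edgeR adjusted p = 9.7e-07). With LPS the level at 16 h was close to that at 3.5 h (log2 change −0.08, 95% interval −0.43 to 0.27), while it fell with VWF (log2 fold change −1.13, SE 0.15, edgeR adjusted p = 6.13e-07) and in controls (log2 fold change −1.08, SE 0.15, edgeR adjusted p = 3.28e-06). The control fall was just under the fold threshold without control replicate 5 at 16 h, the lowest of its group (−0.96, edgeR adjusted p = 8.13e-06).

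Counted over the list, VWF at 3.5 h raised 5 of the 9 members tested (Il6, Il10, Lif, Il10ra and Il4ra) and lowered 1 (Il6ra), against a background of 14.7% of all 8200 genes tested that were called in either direction (9.18% higher and 5.52% lower). The median log2 fold change of the 9 was 1.44, beside 0.00 over all genes tested. In the comparisons of either agonist with control at 3.5 h, Il6 reached the filter in agonist cultures alone and Il6ra in control cultures alone. LPS at 3.5 h called the same 6 members in the same directions, with 24.5% of 8190 genes called (12.8% higher and 11.8% lower), and a median of 1.89. Since both comparisons use the same controls, their values are set side by side and not correlated. Scaling by library totals alone turned the counts of genes called higher and lower from 753 and 453 to 612 and 643 (VWF) and from 1047 and 963 to 708 and 2157 (LPS), and left the 6 members called. In each, the 6 called members were also those whose cultures did not overlap with the controls, where 35.5% (VWF) and 56.3% (LPS) of genes tested had no overlap.

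At 16 h, VWF raised Il4ra and lowered Osm among the 6 members tested, where 8.71% of 7798 genes were called (4.55% higher and 4.15% lower), while LPS raised 6 of 9 (Il6, Il10, Lif, Osm, Il10ra and Il4ra), where 27.6% of 7994 genes were called (15.3% higher and 12.4% lower). Cultures did not overlap with control for 4 of the 6 members tested with VWF (24.6% of genes tested), which Il10rb joins without control replicate 5, and for 8 of 9 with LPS (47.9%). The median log2 fold change was 0.06 over the 6 members tested with VWF and 2.60 over the 9 tested with LPS, beside −0.03 over all genes tested in each. These medians cover different members. Il6, Il10 and Lif were under the filter with VWF, and passed it with LPS through LPS cultures alone. Without a filter their log2 fold changes with VWF were 2.17, 0.79 and 1.25, and Il10 alone had an edgeR adjusted p below 0.05. Osm and Il6st passed the filter with VWF through control cultures alone, and so did Il6st with LPS. The summed macrophage markers at 16 h were at 18739 to 26060 CPM with VWF and 5862 to 17313 CPM in controls, and the part of this difference in the VWF results was not tested. Leaving out both cultures that stood apart kept the call of every member in these comparisons. With no fold threshold, 4 of 6 members passed the adjusted p with VWF, Il6st and Il10ra being the further ones. Over all 7798 genes tested, 1019 were higher and 1144 lower in that setting. Between agonists, VWF was below LPS at 3.5 h for 2 of 8 members tested (Il6 and Il10, with 11.4% of 7500 genes called, 4.71% higher and 6.71% lower) and at 16 h for 5 of 8 (Il6, Il10, Lif, Osm and Il4ra, with 25.5% of 7574 genes called, 11.1% higher and 14.5% lower). In the comparison of the agonists at 16 h, Il6, Il10, Lif and Osm passed the filter through LPS cultures alone. Cultures of the agonists did not overlap for 3 of 8 members at 3.5 h (39.9% of genes tested) and 7 of 8 at 16 h (51.6%). With library totals alone, genes called higher and lower went from 1221 and 989 to 793 and 2253 for LPS against control at 16 h, and for VWF against LPS from 353 and 503 to 751 and 340 at 3.5 h and from 837 and 1095 to 1726 and 700 at 16 h. No member was called higher with VWF than with LPS at either time by edgeR or DESeq2, and none had a higher estimate with an unadjusted p under 0.05.

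**Figure D4:**
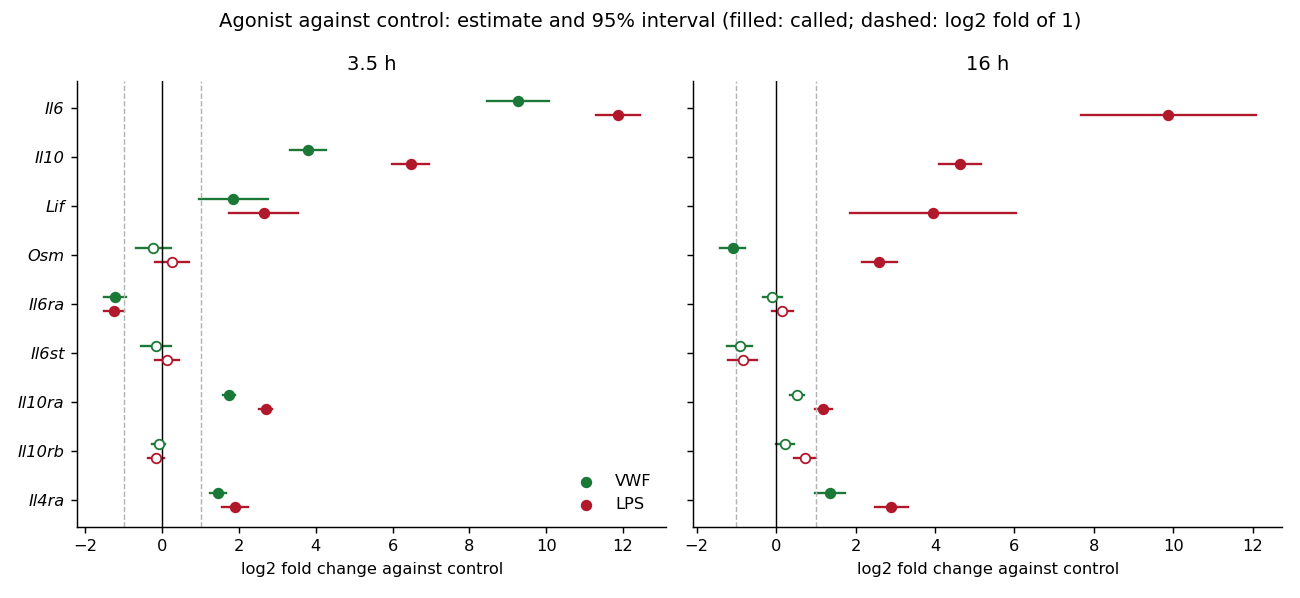
Log2 fold change of each member against control at 3.5 h (left) and 16 h (right) with its 95% interval from edgeR, for VWF and LPS, filled where called and open where not, with dashed lines at a log2 fold of 1 in either direction. Il6, Il10 and Lif have no VWF value at 16 h because they were under the filter, and Osm is the member whose VWF and LPS values are called on opposite sides at 16 h.

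The time course was compared within each treatment in a fit of all 28 cultures over 8867 genes. From 3.5 h to 16 h, 4 of 9 members fell in controls (Il10, Lif, Osm and Il4ra, with 10.3% of genes called, 4.62% higher and 5.63% lower), 5 fell and 1 rose with VWF (21.1% called, 9.16% higher and 12% lower), and 5 fell and 1 rose with LPS (27.8% called, 13.4% higher and 14.4% lower). Cultures of the 2 times did not overlap for 4 members in controls (36.6% of genes), which Il10rb joins without control replicate 5 at 16 h, 7 with VWF (52.6%) and 6 with LPS (53.2%). The members that fell with VWF were Il6, Il10, Lif, Osm and Il4ra. Those that fell with LPS were Il6, Il10, Lif, Il6st and Il10ra, and Il6ra rose in both. In controls, Il6 had a log2 change of −0.90 (edgeR adjusted p = 0.381) that rested on control replicate 4 at 16 h, and without that culture, against controls with no read, it was −5.79 (edgeR adjusted p = 0.000726), which is no bound.

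The change of the VWF effect between the times was tested directly, and 4 of 9 members were called (14% of genes, 5.65% higher and 8.35% lower). It was lower at 16 h for Il6 (log2 fold change −7.06, SE 1.22, edgeR adjusted p = 4.8e-05), Il10 (log2 fold change −3.03, SE 0.29, edgeR adjusted p = 5.44e-09) and Il10ra (log2 fold change −1.20, SE 0.10, edgeR adjusted p = 4.07e-10) and higher for Il6ra (log2 fold change 1.17, SE 0.17, edgeR adjusted p = 3.12e-06), the gene that VWF had lowered at 3.5 h. The call of Il6 rested on the 21 counts of control replicate 4 at 16 h: without that culture the controls at 16 h held no read, and the estimate was −2.17 with an SE of 5.94 (edgeR adjusted p = 0.837). For Il4ra the change was −0.05 (95% interval −0.49 to 0.39). The change of the LPS effect was called for 4 of 9 members (27.1% of genes, 13.1% higher and 14% lower): lower at 16 h for Il10 (log2 fold change −1.85, SE 0.30, edgeR adjusted p = 1.16e-05) and Il10ra (log2 fold change −1.53, SE 0.11, edgeR adjusted p = 9.57e-12), and higher for Osm (2.32) and Il6ra (log2 fold change 1.39, SE 0.18, edgeR adjusted p = 3.67e-07). Il4ra was just under the fold threshold there (log2 fold change 1.00, SE 0.23, edgeR adjusted p = 0.000672) and was called with the replicate number as a block (1.02, edgeR adjusted p = 0.000442).

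Per length, Il10, Lif and Il6 were the 3 lowest of the 9 in controls at both times, and Il10 and Il6 were the highest with LPS at 3.5 h. TPM is used here because it allows genes to be set against each other. In control cultures at 3.5 h the order by mean TPM was Il10rb (149.7 ± 4.31), Il4ra (81.0 ± 11.2), Osm (71.4 ± 14), Il10ra (67.4 ± 8.83), Il6ra (13.8 ± 1.89), Il6st (12.9 ± 3.48), Il10 (10.3 ± 2.33), Lif (7.05 ± 3.40) and Il6 (0.167 ± 0.0594), each as mean ± SD of 5 cultures. Neighbours in this order from Il4ra to Il10ra, and from Il6ra to Lif, differed by less than the larger of their SDs. With VWF at 3.5 h, Il10ra (191 ± 6.78 TPM) and Il4ra (187 ± 27.2 TPM) led, followed by Il10 (121 ± 19.0 TPM), with Il6ra lowest (5.03 ± 1.18 TPM). With LPS at 3.5 h, Il10 (573 ± 88.2 TPM) and Il6 (382 ± 73.5 TPM) were the highest of the 9. At 16 h, Il10rb led with VWF (123 ± 8.72 TPM) and Il4ra with LPS (182 ± 45.2 TPM), where Il6st was lowest (4.33 ± 1.43 TPM).

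The genes whose log2 CPM followed each member most closely over the 28 cultures were taken by Pearson correlation, as a description that group means dominate. For Il6 they were Cd40, Cd69 and Socs1 (r of 0.99 each), and for Il10 Ifi202b, Rap1b and Irf1 (0.99 each). For Lif they included Orc4 (0.93) and Cldnd1 (0.90), and for Osm Kdm7a (0.93), Lrrfip2 (0.93) and Tmem132a (0.92). Il6ra was followed by Hdac5 (0.97), Sash3 (0.96) and Trerf1 (0.96), Il6st by Sidt2 (0.92), Mbnl1 (0.88) and Atf6 (0.87), Il10ra by Dcp2 (0.98), Ifih1 (0.97) and Lcp2 (0.97), Il10rb by Rnf25 (0.89), Fam214b (0.89) and Atp6v1d (0.88), and Il4ra by Rnf19b (0.98), Met (0.98) and Ccdc86 (0.97).

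Other ligands and receptors of the families were mostly under the filter (values in brackets from here on are log2 fold changes by edgeR). Of 15 further IL-6 family genes, 5 were tested at 3.5 h, and Il27, the p28 subunit of IL-27, rose with VWF (log2 fold change 6.65). Over all genes tested, 9.18% were called higher and 5.52% lower with VWF at 3.5 h, and 12.8% and 11.8% with LPS, and at 16 h it was 4.55% and 4.15% with VWF and 15.3% and 12.4% with LPS, the shares beside which the counts of this and the next lists stand. With LPS, 3 of 5 rose: Il27 (9.69), Clcf1 (2.15), a cytokine that acts through the CNTF receptor, and Ebi3 (1.36), the partner of p28 in IL-27. At 16 h, Ebi3 (0.38) and Il11ra1 (−0.96) were not called with VWF, 3 of 4 rose with LPS, and the same genes were lower with VWF than with LPS (Il27 −5.36, Clcf1 −2.83 and Ebi3 −2.13). Of 11 further IL-10 family genes, all were under the filter with VWF against control, Il19 rose with LPS at 3.5 h (9.37) and Il20rb, a receptor chain for IL-20 cytokines, rose with LPS at 16 h (3.53). The 2 chains that pair with IL-4Rα and were tested, Il13ra1 and Il2rg, rose with VWF at 3.5 h (1.36 and 1.1) and with LPS at 3.5 h (2.17 and 1.43) and 16 h (2.23 and 2.23).

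Downstream of the receptors, 5 of 10 JAK and STAT genes tested rose with VWF at 3.5 h, the largest being Stat2 (3.24), Jak2 (3.17) and Stat5a (2.61), with a median of 1.01 beside 0.00 over all genes tested. With LPS it was 6 of 10, led by Stat5a (3.99), Stat2 (3.61) and Jak2 (3.48). At 16 h, 2 of 9 rose with VWF, among them Stat2 (1.93), and 6 of 9 rose with LPS. Stat3 was higher with VWF at 3.5 h by 1.1 and had a log2 fold change of 0.14 at 16 h, where LPS reached 2.31 (it is named here because IL-6 and IL-10 signal through it, which was decided after its values were seen).

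Among 13 feedback inhibitors tested at 3.5 h, 3 rose with VWF, beside 9.18% of all genes tested (median of the 13, 0.16): Socs3 (7.33), which blocks gp130 signalling, Socs1 (6.04), an inhibitor of JAK kinases, and Cish (3.52). With LPS, 5 rose (12.8% of all genes tested), led by Socs1 (8.63), Socs3 (7.89) and Cish (4.57), and Socs5 fell (−1.11). For Socs3 at 3.5 h the difference between VWF and LPS was −0.54 and not called. At 16 h, Socs3 was the 1 of 9 that was called higher with VWF (2.65), beside 4.55% of all genes tested. It was −4.33 against LPS, and with LPS 4 of 10 rose against control, beside 15.3% (Socs3 7.03, Socs1 6.57 and Ptpn2 1.5 the largest).

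**Figure D5:**
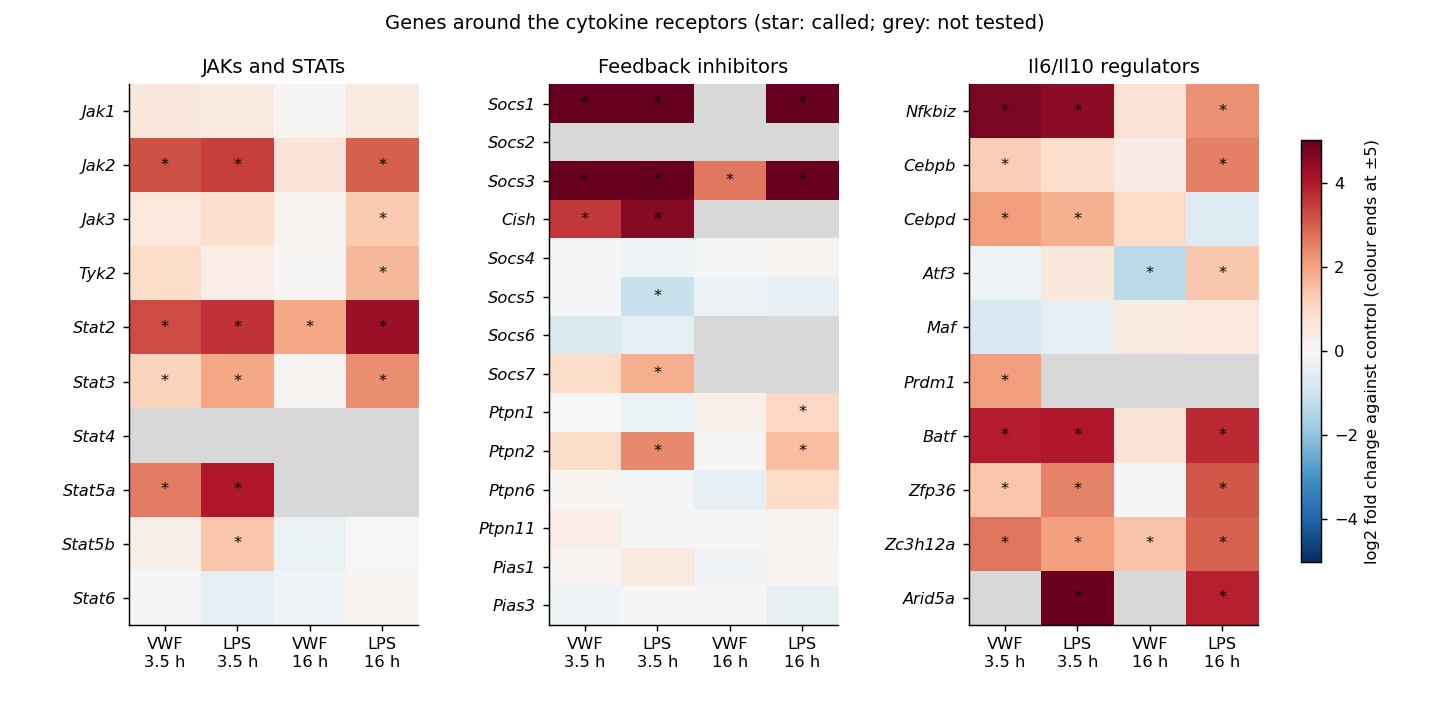
Log2 fold change against control for the genes shown of 3 lists, JAKs and STATs, feedback inhibitors, and regulators of Il6 and Il10, in columns for VWF and LPS at 3.5 h and 16 h, with a star where called and grey where not tested (colours end at a log2 fold of 5). Most starred genes of the VWF column at 3.5 h have no star in the VWF column at 16 h, while the LPS columns keep most of theirs.

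Genes known to be induced through IL-10 and STAT3 in macrophages, a list that includes Il4ra and Socs3, rose in 6 of 8 cases with VWF at 3.5 h (median 1.51), beside 9.18% of all genes tested, led by Socs3, Bcl3 (2.66) and Sbno2 (1.59). With LPS at 3.5 h, 7 rose, beside 12.8%, led by Socs3, Nfil3 (3.32) and Bcl3 (2.83), and Il21r, a receptor gene for IL-21, fell (−1.95). At 16 h with VWF, 4 rose and 2 fell, beside 4.55% and 4.15%. Nfil3 (−1.99), a repressor of Il12b, and Il1rn (−1.51), the gene of the IL-1 receptor antagonist, were the 2 that fell. With LPS at 16 h all 8 tested rose, beside 15.3% of all genes tested, including Il1rn (4.23) and Nfil3 (1.46, given here because it had fallen with VWF). Il1rn and Nfil3 were thus called on opposite sides of control by the agonists at 16 h, as Osm was, and the direct differences were −5.70 and −3.40.

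Of 12 genes known to be induced through IL-4 and STAT6, 5 were tested with VWF and 6 with LPS at 3.5 h. At 16 h it was 4 with VWF and 5 with LPS. In this list and the others, a gene raised by an agonist could enter the test through that agonist's cultures alone. The counts and medians hold for the genes tested and not for the whole list. At 3.5 h, 3 of 5 rose with VWF (median 3.52) and 4 of 6 with LPS, led in both by the chemokine genes Ccl22 (5.09 and 7.0) and Ccl17 (4.46 and 5.72). At 16 h with VWF, Arg1, the gene of arginase 1, rose (5.88) while Ccl24 (−8.23), the gene of eotaxin-2, and Clec10a (−1.76), a lectin gene, fell. With LPS, Arg1 (7.78) and Ccl22 (5.03) rose and Mrc1 (−3.32) and Clec10a (−3.08) fell. The list thus held called genes in both directions at 16 h, and Il4ra itself was higher in all 4 comparisons with control.

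Regulators of Il6 and Il10 transcription and of mRNA decay rose early with both agonists. With VWF at 3.5 h, 7 of 9 tested rose (median 2.09), led by Nfkbiz (4.69), the gene of IκBζ, which cooperates with NF-κB at Il6, Batf (3.93) and Zc3h12a (2.68), the gene of regnase-1, a ribonuclease that degrades Il6 mRNA. With LPS, 6 of 9 rose, led by Arid5a (4.89), which stabilises Il6 mRNA, Nfkbiz (4.47) and Batf (4.00). Arid5a was not tested against control with VWF and was lower with VWF than with LPS at both times (−2.80 and −3.49). At 16 h with VWF, Zc3h12a was still higher (1.41), Atf3 was lower (−1.35) and 6 of 8 did not pass, while 7 of 9 rose with LPS.

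The 3 genes tested that shed cytokine receptors, or bring the protease to the surface, were Adam10, Adam17 and Rhbdf2. Adam17 (1.11), the protease that releases IL-6Rα from the cell surface, and Rhbdf2 (1.31), which brings it to the surface, rose with VWF at 3.5 h, beside 9.18% of all genes tested. With LPS, 1 of 3 rose, beside 12.8%, namely Rhbdf2 (1.78), and Adam17 had a log2 fold change of 0.64. At 16 h with VWF, Adam17 (0.57) and Rhbdf2 (0.77) were under the fold threshold, and Rhbdf2 rose with LPS (1.87).

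Of the marker sums given next, that of dendritic cells was above control in every group where Il6 and Il10 were raised, and the others in only part of these groups. The 6 T cell markers summed to 33.9 to 59.4 CPM with LPS at 3.5 h against 4.70 to 9.09 CPM in controls, of which Lck reached 55.0 CPM. With VWF at 3.5 h they summed to 5.72 to 7.73 CPM, and with LPS at 16 h to 3.83 to 6.40 CPM against 2.36 to 3.48 CPM in controls. Over the 28 cultures Cd4 was never at 0 and reached 8.61 CPM, Cd3g had up to 45 counts, and Cd3d, Cd3e and Cd8a had at most 8. The 4 dendritic cell markers summed to 13.6 to 19.3 CPM with VWF and 21.6 to 27.0 CPM with LPS at 3.5 h against 1.21 to 1.85 CPM in controls. With LPS at 16 h they summed to 12.9 to 29.8 CPM against 0.611 to 1.95 CPM. Xcr1 reached 28.7 CPM and Zbtb46 3.42 CPM over the 28 cultures, neither at 0 in any, while Flt3 had at most 8 counts and Siglech at most 20. The 3 endothelial markers summed to 53.0 to 81.9 CPM with LPS at 16 h against 1.82 to 2.65 CPM in controls. Their highest values over the 28 cultures were 67.9 CPM for Kdr, 12.8 CPM for Pecam1 and 2.88 CPM for Cdh5. At 3.5 h the endothelial sum was 5.54 to 7.02 CPM with VWF and 6.93 to 10.9 CPM with LPS, against 8.10 to 12.8 CPM in controls. The part of such cells in the results was not tested.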

How the data were processed

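Paired-end reads of 150 bases were mapped to GRCm38 (mm10) and quantified with STAR by the authors, who deposited whole-number read counts per gene, unfiltered, for 28 cultures. Its version, the annotation, the strand setting and how multi-mapping reads were treated were not given in the sources used here. Gene lengths for TPM, and coordinates, came from GENCODE M21 (54495 of 54532 genes matched), and promoters from RefSeq.

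Counts were tested with edgeR 4.0.16 in R 4.3.3 (quasi-likelihood, robust, TMM factors of 0.735 to 1.18), in separate fits for comparisons of 2 groups at a time and in a joint fit for time. Genes had to reach 10 TPM in at least 1 culture. The Benjamini-Hochberg adjustment ran over all genes tested in a comparison, and both 0.05 and an absolute log2 fold change of 1 had to be passed. Scripts were tested on simulated data. No duplicated library was found among 52 pairs of the same group (chi-square per degree of freedom at least 17.1). Alternatives were DESeq2 1.42.0, other scaling and filters, no fold threshold, a replicate block, other sets of cultures in the fit, and leaving out cultures. For VWF against LPS at 16 h, cultures of the same replicate number had correlated deviations in every pair (r of 0.16 to 0.78, 4 pairs). No chance level of r was computed, so this does not show that the numbers pair the cultures. The block kept 5 members called there, as without it.

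The members and lists were chosen with earlier results of these data known. All members are named, and from each list the called genes that changed most, up to 3 higher and 3 lower, except a few that are not reported here. Other genes are given for the sake of a comparison with such a gene, and were chosen after their values were seen.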

Additional observations from a re-analysis of the deposited data

Results flagged for a closer look

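Within groups, 6 of 54 sets of a member's CPM values held a culture far from the others by Dixon's test at 95%, which chance gives in about 1 of 20 sets. At 16 h, control replicate 4 held 0.342 CPM of Il6 where the other 4 controls held no read, and the call of the changed VWF effect on Il6 rests on it. Control replicate 5 was highest for Il10rb (184 CPM) and lowest for Il4ra (48.2 CPM), and it also stood apart over all genes. LPS replicate 3 was lowest for Osm (44.1 CPM) and remained above every control and VWF culture. At 3.5 h, VWF replicate 1 was highest for Lif (65.6 CPM) and for the stromal marker sum, and VWF replicate 2 was highest for Il4ra (487 CPM).

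The effect of an agonist differed between the times, by the interaction term of the edgeR fit, in 8 cases. For VWF the log2 changes of the effect were −7.06 for Il6, −3.03 for Il10, −1.20 for Il10ra and 1.17 for Il6ra. For LPS they were −1.85 for Il10, −1.53 for Il10ra, 2.32 for Osm and 1.39 for Il6ra.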

How the results depend on the processing

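Of 1950 recomputed member values, 1870 kept their direction and their side of the thresholds, 14 lost a call, 51 gained one and 15 turned in direction, none of which was called in the main analysis. With no fold threshold, members past the adjusted p were 4 of 6 for VWF against control at 16 h and 4 of 8 for VWF against LPS at 3.5 h. They were 7 of 9 each for the changes of the VWF and LPS effects with time. In the same order, the genes higher and lower over all tested were 1019 and 1144 of 7798, 1970 and 1798 of 7500, 1384 and 1574 of 8867, and 2280 and 2401 of 8867. With library size scaling, the sign turned for Osm (−0.26) and Il6st (−0.40) with LPS at 3.5 h, Il6ra with LPS at 16 h (−0.38), Il6st (0.0308) and Il6ra (0.24) for VWF against LPS at 3.5 h and 16 h, and Il4ra in the change of the VWF effect (0.0658), while Il10ra lost its call with LPS at 16 h (0.65) and Il6st gained one (−1.37). The cause was not tested.

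Leaving out 1 culture gave 6 to 6 members called for VWF and for LPS against control at 3.5 h, 2 to 3 and 5 to 6 at 16 h, 2 to 3 and 4 to 5 for VWF against LPS at 3.5 h and 16 h, 3 to 5, 6 to 6 and 4 to 6 over time in control, VWF and LPS cultures, and 3 to 4 and 4 to 7 for the changes of the VWF and LPS effects. The 7 came without control replicate 1 at 16 h, through Il6 (−2.35, edgeR adjusted p = 0.0496), Il6st (−1.03) and Il4ra (1.03). The estimate crossed 0 between cultures left out for Il6 in the change of the LPS effect (−2.40 to 2.89, positive without control replicate 4 at 16 h), Il4ra in that of the VWF effect (−0.168 to 0.0318), Il4ra over time with LPS (−0.230 to 0.0250) and Il6st over time in controls (−0.125 to 0.0454). Without both cultures that stood apart, a set chosen after seeing the data, Il4ra in controls (−0.97) and Il6st with LPS (−0.93) were under the fold threshold over time, and Il4ra with LPS was at 0.0243. Without the replicate-1 cultures, also chosen so, Il6st was called with LPS at 16 h (−1.02, edgeR adjusted p = 0.00169). In DESeq2 and with no filter, the fall of Lif over time with LPS was not called (adjusted p of 0.0529 and 0.0846).

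With the replicate block, members called were 6 (VWF) and 6 (LPS) against control at 3.5 h, 2 and 6 at 16 h, 2 and 5 for VWF against LPS, 4, 6 and 6 over time in control, VWF and LPS cultures, and 4 and 5 for the changes of the VWF and LPS effects, where Il4ra was gained, and it changed no other call. Outside VWF against LPS at 16 h, not every pair of the same number deviated together (lowest r −0.67). Replicate 1 had the highest stromal marker sum in each of the 6 groups. The main tests did not take the numbers to pair the cultures in any comparison, and whether they do was not settled.

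Depth limits Il6 at 16 h in control and VWF cultures, where counts of 0 to 28 left the call of their difference dependent on the filter and on the cultures in the fit. The floor for Il6 covers counting error only, while the 95% intervals come from the edgeR fits and include the spread between cultures.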
